A study of Mus musculus with 20 samples.

Results

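The genes described are the laminin chains and the integrin subunits of the mouse, that is, the protein-coding genes named Lama, Lamb or Lamc with a number and Itga or Itgb with a number or letter. The rule used gene symbols only and no measured value. It took 37 of 20636 genes in the table, 11 laminin chains, 18 integrin alpha subunits and 8 integrin beta subunits, and all 37 passed the minimum level for testing. A laminin is a secreted trimer of an alpha, a beta and a gamma chain that polymerises into the basement membrane, the sheet on which epithelial, endothelial, muscle and Schwann cells rest. An integrin is a cell surface pair of an alpha and a beta subunit that ties the cytoskeleton to laminin, collagen, fibronectin or receptors on other cells. In pancreatic ductal adenocarcinoma, cancer cells, fibroblasts, vessels and leukocytes use different members of both families, so a whole tumour carries the sum of several sets.

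RNA was sequenced from whole tumours of mice in which tamoxifen switches on the Ptf1aCreER recombinase, which is active in acinar cells, the makers of digestive enzymes. KPAT tumours came from mice with a Trp53 fl/fl and a Cdkn2A-Arf fl/fl genotype, KAT tumours from mice with Cdkn2A-Arf fl/fl alone, and KPT tumours from mice with Trp53 fl/fl alone. Trp53 encodes the tumour suppressor p53 and the Arf product stabilises p53. All 3 groups shared the rest of the genotype, which includes a tdTomato reporter at the Rosa26 locus and the Cre driver. Tamoxifen was given as 5 mg on each of 3 days to mice 8 to 10 weeks old, which were kept until morbid, so the age at collection was not fixed. Each group held 5 tumours numbered separately in the labels. Another group with neither suppressor floxed, KT, is not analysed here. Cells outside the acinar lineage kept the floxed alleles and contribute RNA to each library.

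Libraries held 14696138 to 26248484 reads in KPAT, 16704627 to 22124495 in KAT and 16622901 to 23039354 in KPT. Trp53 was at 32.9 to 57.2 deposited units in KPAT, 99.0 to 148 in KAT and 22.7 to 26.3 in KPT, while Cdkn2a overlapped between all groups. Which exons were floxed is not stated, so these levels do not measure recombination. The 8 epithelial markers summed to 7566 to 10536 in KPAT, 6977 to 11701 in KAT and 10439 to 17771 in KPT, and none was at 0 in any tumour. Intestine markers summed to 988 in KAT 1 and 1164 in KPT 1, against at most 425 in the other 13 tumours. KPT 1 and KAT 1 were therefore left out together as an alternative, and so were KPT 3, KAT 2 and KPAT 5, which an earlier analysis of these values found to hold the most ribosomal RNA reads.

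Values below are in deposited units, which are reads divided by a factor for each library, and run from tumour 1 to tumour 5 of a group unless a range is given. A fold change is a difference of group means on the scale of log2(normalized count + 1), where the normalized count is the deposited value times 19.478, and this scale understates the change of low genes. A gene was called when limma's p-value, adjusted by Benjamini-Hochberg over the 16648 genes tested, was at most 0.05. To compare one gene's level with another's, deposited units were divided by the length of the gene's merged exons in kb.

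Per kb of exon, Itgb1 was the most abundant member, with a mean of 252 over the 15 tumours. Itgb1 encodes the beta subunit with the most alpha partners. Itga3, an alpha subunit for laminin, followed at 134 per kb and the laminin chain Lama5 at 99.2. The genes of the hemidesmosome receptor, Itgb4 and Itga6, stood at 63.5 and 44.5 per kb. At the low end were Itgad, a leukocyte subunit, at 0.12 per kb and Itga8, a subunit of mesenchymal and smooth muscle cells, at 0.32. Of the 18 members called in at least 1 comparison, described below, only Itga5 and Lamb1 were among the 15 most abundant.

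**Figure D1:**
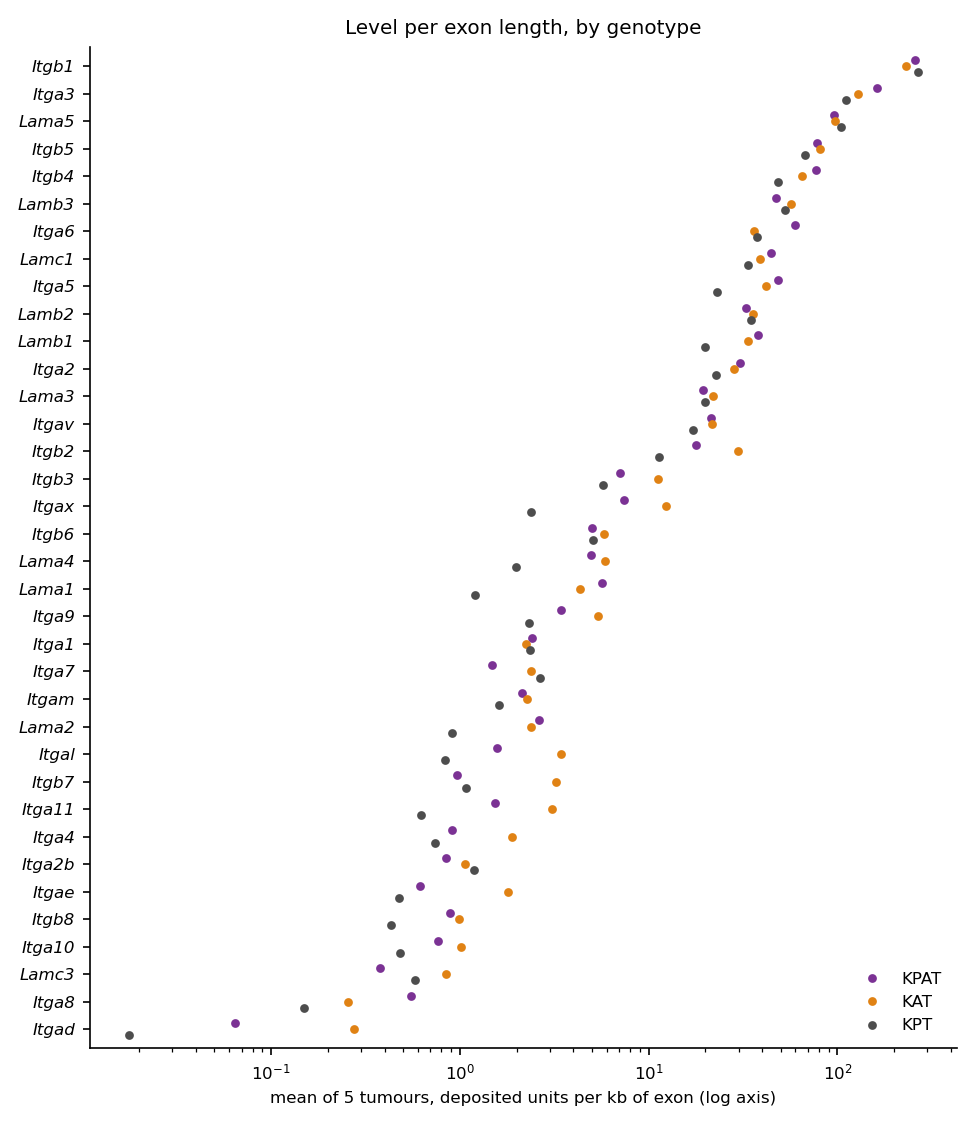
Mean level of laminin and integrin genes over 5 tumours of each genotype, in deposited units per kb of exon on a log axis, with genes ordered by their mean over all 15 tumours. Itgb1 (252 per kb over all tumours) is at the top and Itgad (0.12) at the bottom, and the KPT points lie to the left of both other genotypes for Lama1, Lama2, Lama4 and Itga5.

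KPAT against KPT compares tumours that differ by the floxed Cdkn2A-Arf allele. Of the 37 genes, 7 were called, which is 18.9%, close to the 16.5% of all tested genes called in either direction. Of these, 6 rose, Lama1, Lama2, Lama4, Lamb1, Itga5 and Itga8, against a background of 9.13% of all genes called higher. One, Itga7, fell, against 7.40% called lower. They were 4 of 11 laminin chains, 3 of 18 alpha subunits and 0 of 8 beta subunits. Of the beta subunits 1 reached an unadjusted p below 0.05 in limma, as did 5368 of the 16648 genes tested. The classes were not tested against each other. The median log2 fold change of the 37 genes was 0.38, against 0.016 over all genes.

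KAT against KPT compares tumours in which different suppressors were floxed. It shares its 5 KPT tumours with the comparison above, so the values are set side by side and not counted as independent. Of the 37 genes 16 rose and none fell, which is 43.2%, against 28.9% of all genes called, 15.6% higher and 13.3% lower. They were 4 of 11 laminin chains, 9 of 18 alpha subunits and 3 of 8 beta subunits. The median log2 fold change was 0.79, against 0.026 over all genes. All 5 KAT tumours exceeded all 5 KPT tumours for 10 of the 37 genes, while groups that did not overlap in either direction were found for 17.6% of all genes. In KPAT against KPT this held for 3 of the 37, Itga8 and Lama4 higher and Itga7 lower, against 9.97% of all genes.

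KPAT against KAT, which tests the difference between these comparisons directly, called none of the 37 genes with limma, against 0.0481% of all genes called in either direction, 0.0360% higher and 0.0120% lower. An unadjusted p below 0.05 in limma was reached by 11 of the 37, and by 1798 of the 16648 genes tested. edgeR called none either and DESeq2 called 2, Itga4 and Itgb7. A call in 1 of the comparisons with KPT and not in the other is therefore not shown to be a difference between KPAT and KAT.

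**Figure D2:**
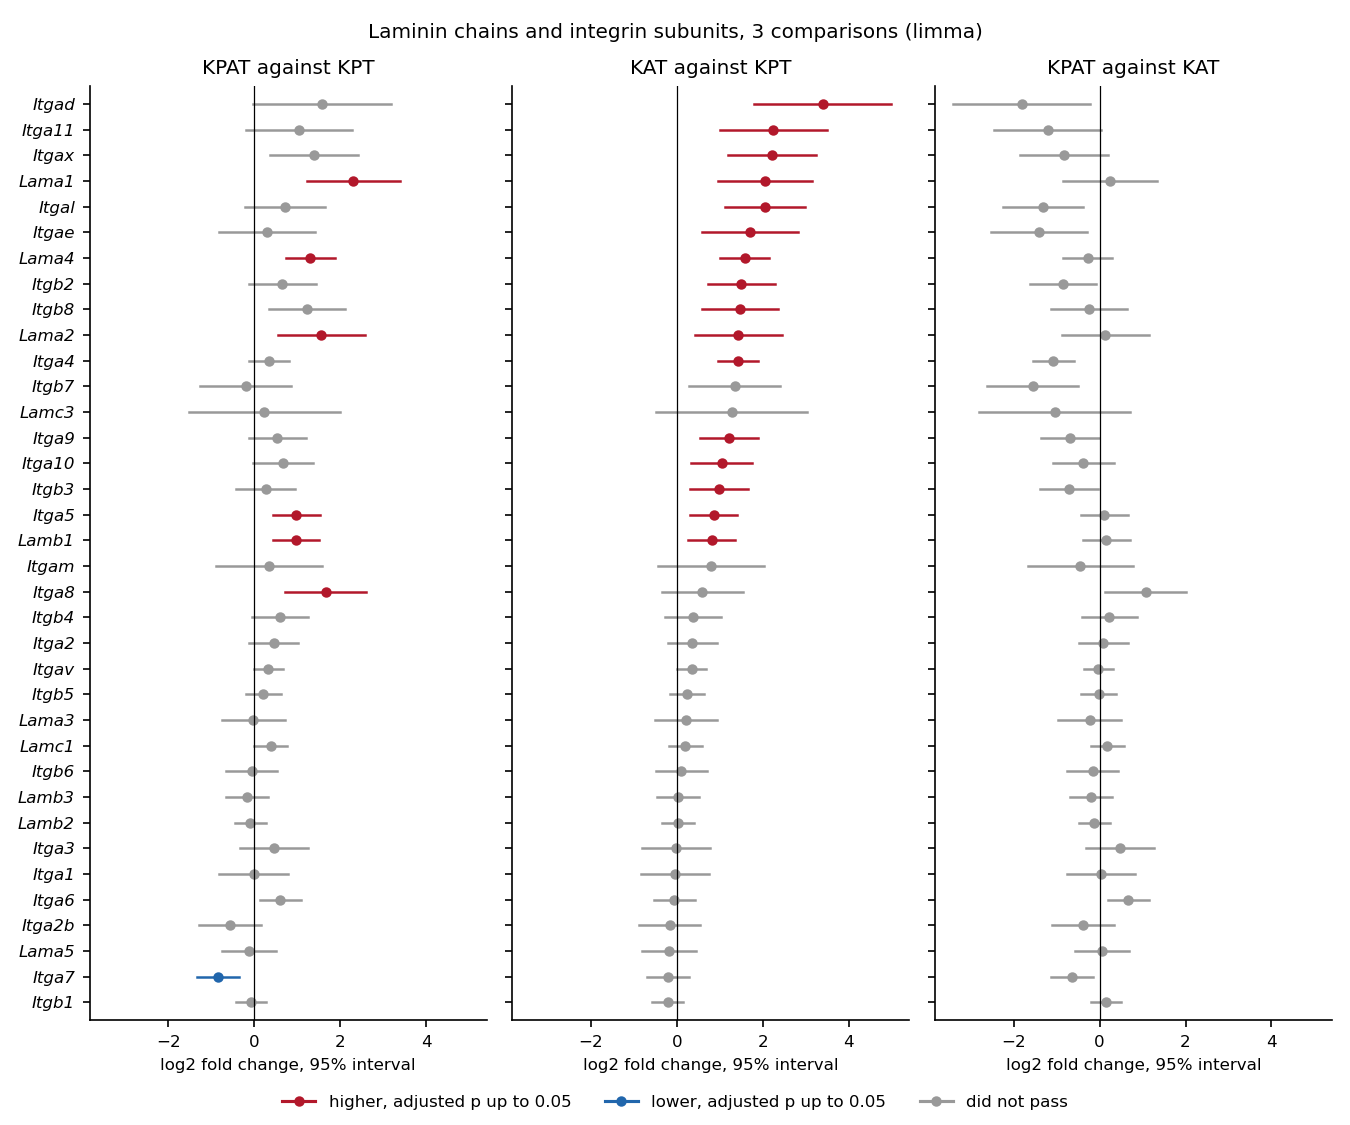
Log2 fold change (point) and 95% interval (line) from limma for laminin and integrin genes in the 3 comparisons, ordered by KAT against KPT, with called genes in colour. Lama1, Lama2, Lama4, Lamb1 and Itga5 are called higher in both comparisons with KPT, and no gene is coloured in KPAT against KAT.

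Among the laminins, Lama1, Lama2, Lama4 and Lamb1 rose in both comparisons with KPT, and the other chains did not pass in either. Lama4, the alpha chain of vessel walls and fat (ENSMUSG00000019846, chromosome 10, 38965515 to 39110188), stood at 56.5, 94.1, 47.4, 36.3 and 64.5 in KPAT tumours, at 54.6, 55.7, 58.1, 102 and 83.9 in KAT and at 25.4, 29.0, 14.9, 18.6 and 31.4 in KPT tumours. Every KPAT and every KAT tumour was above every KPT tumour. The gene rose in KPAT (log2 fold change 1.30 with SE 0.27, adjusted p = 0.00736) and in KAT (log2 fold change 1.57 with SE 0.27, adjusted p = 0.00105), and both calls held under all 28 alternatives. Lama1, the alpha chain of the first basement membrane of the embryo (ENSMUSG00000032796, chromosome 17, 67697259 to 67822647), stood at 31.9, 92.8, 18.4, 57.7 and 74.9 in KPAT tumours, at 23.9, 66.2, 44.3, 44.0 and 32.0 in KAT and at 19.2, 18.3, 3.35, 12.1 and 5.48 in KPT tumours. All KAT tumours lay above all KPT tumours, while KPAT 3 lay just below the highest KPT tumour. It had the largest fold change of the 37 genes in KPAT (log2 fold change 2.30 with SE 0.51, adjusted p = 0.00960) and also rose in KAT (log2 fold change 2.05 with SE 0.51, adjusted p = 0.00902), again under all 28 alternatives.

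Lama2, the alpha chain of muscle and Schwann cell basement membranes (ENSMUSG00000019899, chromosome 10, 26980036 to 27619758), stood at 41.7, 65.4, 13.6, 51.0 and 43.8 in KPAT tumours, at 15.3, 39.6, 70.6, 33.7 and 36.7 in KAT and at 20.3, 26.2, 6.91, 13.3 and 7.71 in KPT tumours. KPAT 3 and KAT 1 were low for their groups and fell among the KPT values. It rose in KPAT (log2 fold change 1.55 with SE 0.48, adjusted p = 0.0377) and in KAT (log2 fold change 1.42 with SE 0.48, adjusted p = 0.0362), but these were among the least stable calls. The KPAT call was lost without any 1 of KPAT 1, KPAT 2, KPAT 4, KPAT 5, KPT 3, KPT 4 or KPT 5 (adjusted p 0.0537 to 0.0939), and without KPT 3, KAT 2 and KPAT 5 together (0.154), and it ran from 0.00688 to 0.154 over all alternatives. The KAT call was lost without any 1 of KAT 2, KAT 3, KAT 4, KAT 5, KPT 3, KPT 4 or KPT 5 (0.0556 to 0.0917), and without KPT 3, KAT 2 and KPAT 5 together (0.145), within 0.0101 to 0.145 over all alternatives. With the replicate number as a block the KPAT call was lost as well (0.0522), and with only the compared groups fitted (0.0545).

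Lamb1, the beta chain shared by many laminins (ENSMUSG00000002900, chromosome 12, 31265234 to 31329644), stood at 242, 308, 467, 417 and 456 in KPAT tumours, at 345, 469, 286, 311 and 266 in KAT and at 134, 269, 118, 220.2 and 252 in KPT tumours. The groups met at their edges, with KPAT 1 and KAT 5 below the highest KPT tumour. It rose in KPAT (log2 fold change 0.96 with SE 0.25, adjusted p = 0.0194) and in KAT (log2 fold change 0.81 with SE 0.25, adjusted p = 0.0279). Leaving out KPT 1 ended the KPAT call (adjusted p 0.0509), and leaving out KAT 2, KPT 1 or KPT 3 ended the KAT call (0.0643 to 0.0710). Without KPT 1 and KAT 1 together, or without KPT 3, KAT 2 and KPAT 5, neither call was kept (0.0611 to 0.138). Over all alternatives the adjusted p ran from 0.00402 to 0.0750 for KPAT and from 0.0152 to 0.138 for KAT. Lamc1, the gamma chain that joins Lamb1 in most laminins, did not pass in either comparison, with a 95% interval of -0.01 to 0.77 for KPAT and -0.19 to 0.58 for KAT on the log2 scale.

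Lama3 and Lamb3 encode the alpha and beta chains of the laminin that anchors epithelial cells at hemidesmosomes. Lama3 stood at 145, 221, 378, 173 and 129 in KPAT tumours, at 209, 365, 149, 249.6 and 213 in KAT and at 182, 198, 240.3, 96.6 and 351 in KPT tumours. Lamb3 stood at 254, 264, 439, 311 and 306 in KPAT tumours, at 348, 668, 309, 311 and 244 in KAT and at 344, 361, 433, 273 and 340.0 in KPT tumours. Both chains overlapped between all groups, and KAT 2 held the highest Lamb3 value of the study. Neither passed in any comparison. The 95% intervals for KPAT against KPT were -0.75 to 0.70 for Lama3 and -0.65 to 0.32 for Lamb3. For KAT against KPT they were -0.52 to 0.93 for Lama3 and -0.46 to 0.51 for Lamb3, so a change beyond about 2-fold in either direction lay outside each interval. Lama5, the other alpha chain of epithelia, at 627 to 1660 over the 15 tumours, and Lamb2, at 160.2 to 294, did not pass either. Lamc3, a gamma chain, was low and spread widely, at 0.378 to 12.7, with KPT 5 the highest.

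**Figure D3:**
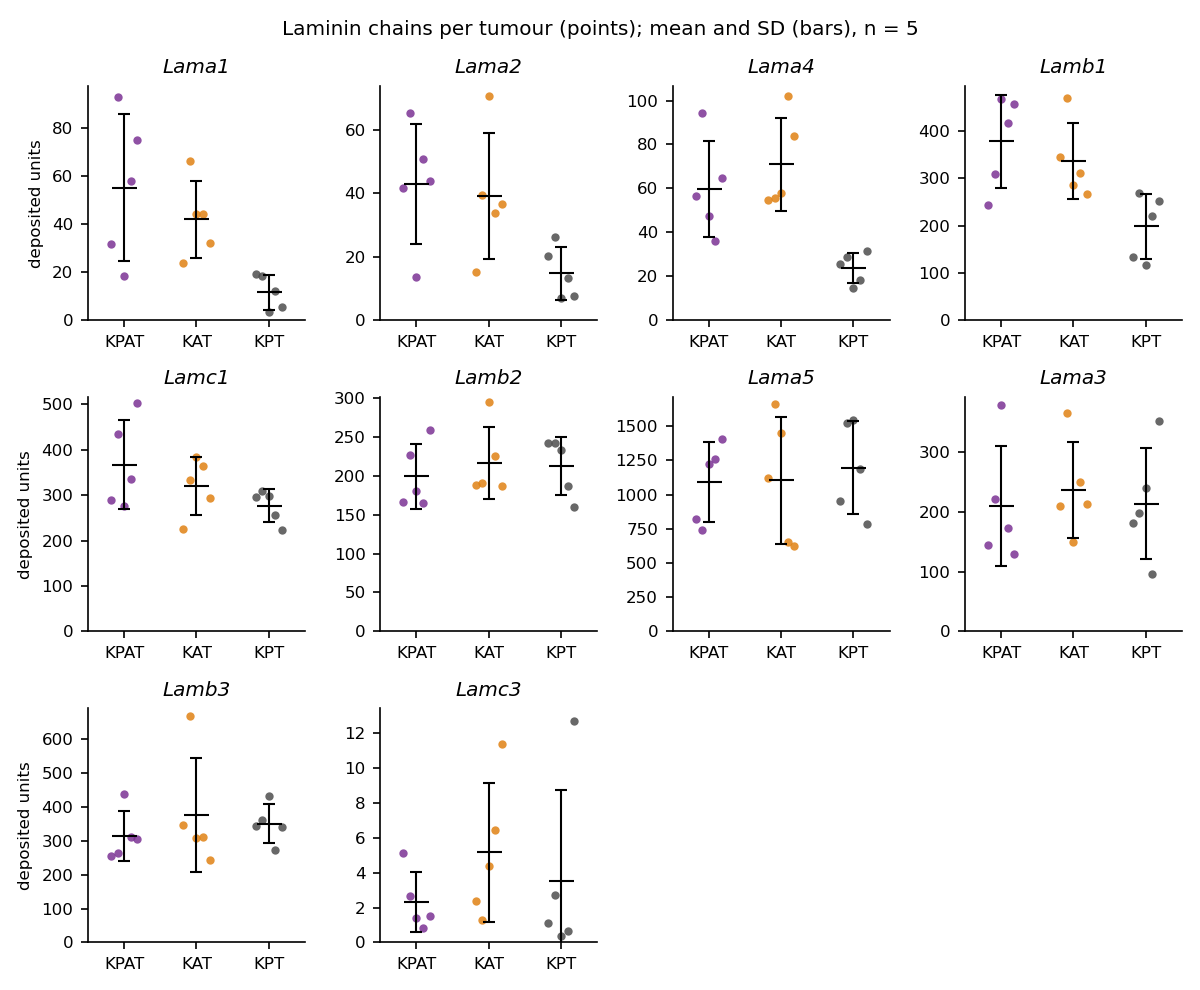
Deposited units of laminin chains in each tumour (points), with the mean and SD of 5 tumours a group (bars), KPAT left, KAT centre and KPT right. Lama1, Lama2, Lama4 and Lamb1 are lower in KPT, while Lamc1, Lamb2, Lama5, Lama3, Lamb3 and Lamc3 overlap between groups, and KAT 2 is the highest for Lamb3 at 668.

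Fibroblast markers moved with these laminins. Of the 8 fibroblast markers 6 rose in KPAT and 8 in KAT, and their summed level was 5126 to 14090 in KPAT, 6537 to 9811 in KAT and 893 to 4050 in KPT, with none at 0. Endothelial markers, of which 2 of 8 rose in KPAT and 4 in KAT, summed to 213 to 388 in KPAT, 181 to 547 in KAT and 148 to 256 in KPT. Of 6 smooth muscle and pericyte markers 1 rose in KPAT and 3 in KAT, with median log2 fold changes of 0.15 and 1.09. Of 3 Schwann cell markers tested, none was called in either comparison. Of the 8 epithelial markers, 2 fell in KPAT and 4 in KAT, and none rose, with a median log2 fold change of -0.52 in both. In bulk tumours, fewer cells of a type and less RNA per cell cannot be told apart. As a share of the fibroblast sum, Lama4 was 0.444% to 0.925% in KPAT, 0.661% to 1.15% in KAT and 0.717% to 1.67% in KPT. Lama1 was 0.358% to 0.705% of it in KPAT, 0.356% to 0.786% in KAT and 0.173% to 0.605% in KPT. The shares of Lama1, Lama2, Lama4, Lamb1, Itga5 and Itga11 overlapped between the groups in all 3 comparisons. The fibroblast sum is mostly RNA of the collagen genes Col1a1, Col1a2 and Col3a1, so these are largely shares of collagen RNA. In KPT, Col1a1 averaged 893 and Pdgfra, another marker of the list, 26.5.

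The receptors of laminin were examined next. Itga6 and Itgb4 form the receptor of the hemidesmosome, the rivet between epithelial cells and their basement membrane. Itga6 stood at 379.9, 322, 586, 595 and 808 in KPAT tumours, at 392, 425, 293, 267 and 265 in KAT and at 299, 382, 283, 395 and 332 in KPT tumours. Itgb4 stood at 360.2, 344, 605, 436 and 971 in KPAT tumours, at 661, 648, 349, 336 and 284 in KAT and at 427, 412, 258, 337 and 258 in KPT tumours. KPAT 5 held the highest value of both genes, and all groups overlapped. Itga6 missed the threshold in KPAT against KPT (log2 fold change 0.61 with SE 0.22, adjusted p = 0.0767) and passed it without KPAT 2 (adjusted p 0.0335) and with DESeq2 (0.0265), in a range of 0.0265 to 0.258 over all alternatives. In KPAT against KAT, Itga6 had an unadjusted p of 0.00958 that did not survive adjustment (log2 fold change 0.66 with SE 0.22, adjusted p = 0.320). Itgb4 did not pass in KPAT (log2 fold change 0.60 with SE 0.30, adjusted p = 0.186) or in KAT (log2 fold change 0.37 with SE 0.30, adjusted p = 0.378). Itga3, the other epithelial laminin subunit, ranged from 557 to 1626 in KPAT, 264 to 1275 in KAT and 579 to 699 in KPT.

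Itga7, the laminin subunit best known from muscle (ENSMUSG00000025348, chromosome 10, 128933818 to 128958282), was the only member that fell. Its level was 11.2, 12.1, 9.43, 16.2 and 11.3 in KPAT tumours, at 17.996, 9.66, 25.0, 22.2 and 21.7 in KAT and at 23.0, 20.3, 19.3, 26.2 and 18.7 in KPT tumours. Every KPAT tumour was below every KPT tumour, and the KAT values reached into both ranges. It fell in KPAT (log2 fold change -0.85 with SE 0.23, adjusted p = 0.0221). The call was lost without KPAT 3 (adjusted p 0.0535) and without KPT 1 and KAT 1 together (0.0593), in a range of 0.00297 to 0.0593. In KAT it did not pass (log2 fold change -0.21 with SE 0.23, adjusted p = 0.505), and its sign turned without KAT 2 (0.02).

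Itgb1, the common partner, stood at 758, 1066, 1469.5, 984 and 1004 in KPAT tumours, at 895, 1269.7, 909.7, 878 and 768 in KAT and at 1018, 1138, 1147, 1113 and 1011 in KPT tumours. KPT tumours lay close together, between 1011 and 1147, inside the wider spread of the others. It did not pass in KPAT (log2 fold change -0.07 with SE 0.16, adjusted p = 0.806) or in KAT (log2 fold change -0.22 with SE 0.16, adjusted p = 0.332), and the KPAT fold change turned positive without KPAT 1 (0.04). The 95% intervals, -0.42 to 0.28 in KPAT and -0.57 to 0.13 in KAT, held only small changes in either direction.

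Among subunits for fibronectin, collagen and other matrix proteins, Itga5, Itga8, Itga9, Itga10, Itga11, Itgb3 and Itgb8 were each called in at least 1 comparison with KPT. Itga5, the fibronectin receptor subunit (ENSMUSG00000000555, chromosome 15, 103344286 to 103366763), stood at 126, 326, 381, 196 and 170.3 in KPAT tumours, at 218, 264, 159.6, 224 and 170.2 in KAT and at 91.0, 122, 98.8, 135 and 121 in KPT tumours. All KAT tumours exceeded all KPT tumours, and among KPAT tumours only KPAT 1 reached into the KPT range. It rose in KPAT (log2 fold change 0.97 with SE 0.26, adjusted p = 0.0200) and in KAT (log2 fold change 0.86 with SE 0.26, adjusted p = 0.0225). The KPAT call was lost without KPAT 2 (adjusted p 0.0554) and without KPT 1 and KAT 1 together (0.0598). The KAT call was lost without KAT 2, KAT 4 or KPT 1 (0.0503 to 0.0532), and without either set of tumours described above (0.0880 to 0.0936). The ranges over all alternatives were 0.00104 to 0.0598 for KPAT and 0.00490 to 0.0936 for KAT.

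Itga8, which binds nephronectin, fibronectin and latent TGF-beta (ENSMUSG00000026768, chromosome 2, 12106632 to 12301922), stood at 2.73, 4.33, 1.53, 4.16 and 7.66 in KPAT tumours, at 2.11, 0.604, 2.51, 2.79 and 1.43 in KAT and at 1.30, 1.28, 1.08, 0.925 and 0.936 in KPT tumours. It is a low gene, with 20 to 26 reads in each KPT library and 28 to 126 in KPAT libraries. Each KPAT tumour was above each KPT tumour. It rose in KPAT (log2 fold change 1.66 with SE 0.44, adjusted p = 0.0203), and the call was lost without KPAT 2 or KPAT 5 (adjusted p 0.0505 to 0.0513, in a range of 0.000705 to 0.0513). In KAT it did not pass (log2 fold change 0.59 with SE 0.44, adjusted p = 0.332), nor did KPAT differ from KAT after adjustment (log2 fold change 1.07 with SE 0.44, adjusted p = 0.403).

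Itga11, the collagen receptor subunit of fibroblasts (ENSMUSG00000032243, chromosome 9, 62677826 to 62783982), stood at 9.65, 19.3, 4.20, 3.96 and 2.13 in KPAT tumours, at 5.76, 8.18, 22.7, 16.2 and 25.8 in KAT and at 5.27, 4.80, 1.40, 2.69 and 1.83 in KPT tumours. Every KAT tumour lay above every KPT tumour, while KPAT tumours spread over both ranges. The KAT increase (log2 fold change 2.24 with SE 0.58, adjusted p = 0.0112) was called under all 28 alternatives. Itga10, a collagen receptor subunit of cartilage (ENSMUSG00000090210, chromosome 3, 96645584 to 96664519), stood at 5.81, 4.15, 2.40, 4.29 and 3.22 in KPAT tumours, at 5.48, 2.58, 4.59, 6.88 and 6.76 in KAT and at 1.66, 3.52, 2.97, 1.58 and 2.81 in KPT tumours. It rose in KAT (log2 fold change 1.04 with SE 0.33, adjusted p = 0.0292), with KAT 2 inside the KPT range, and lost the call without KAT 1, KAT 4, KAT 5, KPT 1 or KPT 4 (adjusted p 0.0554 to 0.0749) and without KPT 1 and KAT 1 together (0.113). With the replicate number as a block it also missed (0.0628), and its range over all alternatives was 0.00805 to 0.113. Of its exon bases, 33.5% are shared with the annotated gene Gm42957 on the same strand, so its count is uncertain. Itga1 and Itga2, the other collagen subunits, did not pass, at 19.5 to 81.0 and 78.3 to 314 over the 15 tumours.

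Itga9, which binds tenascin C and VCAM-1 (ENSMUSG00000039115, chromosome 9, 118606690 to 118901003), stood at 26.1, 45.1, 25.6, 19.9 and 15.2 in KPAT tumours, at 26.6, 34.8, 58.7, 51.9 and 34.5 in KAT and at 25.9, 20.7, 9.39, 14.4 and 19.7 in KPT tumours. All KAT tumours were above all KPT tumours, and it rose in KAT (log2 fold change 1.22 with SE 0.31, adjusted p = 0.0109) under all 28 alternatives. Itgb3, the beta subunit of the vitronectin receptor and of the platelet fibrinogen receptor (ENSMUSG00000020689, chromosome 11, 104608000 to 104670476), stood at 27.7, 46.2, 74.4, 32.7 and 26.5 in KPAT tumours, at 57.7, 63.4, 39.4, 103 and 66.2 in KAT and at 51.5, 41.1, 20.02, 30.2 and 25.8 in KPT tumours. The gene rose in KAT (log2 fold change 0.98 with SE 0.32, adjusted p = 0.0332) although KAT 3 lay among the KPT values, and lost the call without KAT 2, KAT 4, KAT 5, KPT 3, KPT 4 or KPT 5 (adjusted p 0.0521 to 0.0870). It was also lost without KPT 3, KAT 2 and KPAT 5 together (0.108) and with the replicate number as a block (0.0604), in a range of 0.0179 to 0.108. Of the platelet and megakaryocyte markers none of 4 tested rose in KAT and 1 fell, and Itga2b, the platelet partner of Itgb3, stood at 3.19 to 9.10 over the 15 tumours without passing.

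Itgb8, which with Itgav activates latent TGF-beta (ENSMUSG00000025321, chromosome 12, 119158022 to 119238802), stood at 13.9, 13.1, 4.69, 10.3 and 7.18 in KPAT tumours, at 8.48, 9.83, 11.1, 12.9 and 12.5 in KAT and at 5.02, 3.77, 1.89, 2.25 and 10.9 in KPT tumours. KPT 5 was far above the other KPT tumours and overlapped with both groups. Itgb8 rose in KAT (log2 fold change 1.47 with SE 0.41, adjusted p = 0.0167), a call lost without KPT 3, KAT 2 and KPAT 5 together (adjusted p 0.0620, in a range of 0.00221 to 0.0620). In KPAT it missed the threshold (log2 fold change 1.22 with SE 0.41, adjusted p = 0.0556) and passed without KPAT 3 or KPT 5 (0.0104 to 0.0344, in a range of 0.0104 to 0.148). Itgav stood at 187, 206, 293, 213 and 248 in KPAT tumours, at 179, 248, 225, 258 and 253 in KAT and at 138, 236, 169, 207 and 173 in KPT tumours. Its groups overlapped, and it did not pass in KPAT (log2 fold change 0.32 with SE 0.16, adjusted p = 0.178) or in KAT (log2 fold change 0.34 with SE 0.16, adjusted p = 0.115). Itgb6, the epithelial partner of Itgav that also activates TGF-beta, stood at 45.2, 30.2, 34.9, 45.8 and 21.5 in KPAT tumours, at 20.5, 46.8, 27.5, 51.7 and 60.5 in KAT and at 43.6, 38.1, 29.1, 37.2 and 32.1 in KPT tumours. It overlapped between all groups and did not pass, with 95% intervals of -0.65 to 0.54 in KPAT and -0.49 to 0.70 in KAT. Itgb5, another partner of Itgav, stood at 198 to 367 over the 15 tumours and did not pass.

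Of the 11 genes called in KAT against KPT and not in KPAT against KPT, 6 were subunits of leukocyte integrins, Itga4, Itgad, Itgae, Itgal, Itgax and Itgb2. Over all tested genes, 28.9% were called in KAT against KPT and 16.5% in KPAT against KPT. The share of all genes called in KAT alone was not computed, and limma called none of these 11 in KPAT against KAT. Itgb2 is the beta subunit of 4 leukocyte integrins, with Itgal, Itgam, Itgax and Itgad as alpha partners, and is made by all white blood cells. It (ENSMUSG00000000290, chromosome 10, 77530252 to 77565708) stood at 79.4, 69.5, 63.9, 34.8 and 23.4 in KPAT tumours, at 68.7, 94.5, 66.6, 118 and 108 in KAT and at 31.1, 29.5, 31.5, 16.2 and 65.3 in KPT tumours. All KAT values were above all KPT values, with KPT 5 at 65.3 just below the lowest KAT tumour. It rose in KAT (log2 fold change 1.497 with SE 0.36, adjusted p = 0.00794) and did not pass in KPAT (log2 fold change 0.65 with SE 0.36, adjusted p = 0.236).

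Itgal, a leukocyte subunit that binds ICAMs (ENSMUSG00000030830, chromosome 7, 127296260 to 127335138), stood at 10.5, 17.2, 15.9, 3.29 and 4.81 in KPAT tumours, at 21.2, 14.4, 14.9, 34.3 and 28.5 in KAT and at 5.97, 4.28, 8.74, 3.17 and 5.12 in KPT tumours. Itgal rose in KAT (log2 fold change 2.04 with SE 0.44, adjusted p = 0.00389), where no KAT tumour overlapped with KPT, and did not pass in KPAT (log2 fold change 0.72 with SE 0.44, adjusted p = 0.271). Itgax, known from dendritic cells and tissue macrophages (ENSMUSG00000030789, chromosome 7, 128129547 to 128150657), stood at 42.5, 50.4, 59.9, 13.0 and 12.2 in KPAT tumours, at 38.5, 37.0, 27.4, 111 and 82.2 in KAT and at 9.03, 9.66, 11.3, 9.07 and 18.4 in KPT tumours. Itgax rose in KAT (log2 fold change 2.21 with SE 0.48, adjusted p = 0.00425) without overlap. In KPAT it missed the threshold (log2 fold change 1.39 with SE 0.48, adjusted p = 0.0617), and KPAT 4 and KPAT 5 lay among the KPT values. It passed there without KPAT 4, KPAT 5 or KPT 5 (adjusted p 0.0313 to 0.0494), with edgeR and with DESeq2 (0.00488 to 0.0336), in a range of 0.00488 to 0.142 over all alternatives.

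Itgad, a macrophage subunit (ENSMUSG00000070369, chromosome 7, 128154376 to 128223816), stood at 0.656, 0.0370, 0.381, 0.201 and 0.182 in KPAT tumours, at 0.328, 0.494, 0.731, 2.87 and 1.76 in KAT and at 0, 0, 0, 0.0881 and 0.312 in KPT tumours. These values rest on 1 to 13 reads in KPAT libraries, 7 to 66 in KAT and 0 to 7 in KPT, with 3 KPT libraries at 0. Itgad rose in KAT (log2 fold change 3.39 with SE 0.75, adjusted p = 0.00475), and the size of this fold change depends on the pseudocount. Itgax and Itgad share 10.7% and 11.3% of their 31-base words, so some of their reads may be split between them. Of the exon bases of Itgad, 7.32% are shared with the annotated gene Gm17831 on the same strand. Others lie opposite exons of 4931431B13Rik (8.60%), Gm39091 (2.26%) and Cox6a2 (1.55%), so its count is uncertain. Itgam, the subunit of neutrophils and macrophages, ranged from 1.76 to 17.2 in KPAT, 10.1 to 12.7 in KAT and 2.38 to 16.1 in KPT, and did not pass in KAT (log2 fold change 0.79 with SE 0.58, adjusted p = 0.321). Of its exon bases, 68.7% are shared with the annotated gene Gm49368 on the same strand, so its count is uncertain. In KAT the calls of Itgb2, Itgal and Itgax held under all 28 alternatives, and that of Itgad under all 27 that could be run for it.

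Itga4, the subunit with which lymphocytes and monocytes bind VCAM-1 (ENSMUSG00000027009, chromosome 2, 79255426 to 79333123), stood at 16.7, 12.6, 14.2, 11.2 and 9.002 in KPAT tumours, at 24.04, 23.4, 32.6, 28.5 and 24.2 in KAT and at 9.18, 11.0, 16.4, 7.48 and 7.44 in KPT tumours. Each KAT tumour was above every KPAT and every KPT tumour. It had the smallest p of the 37 genes in KAT (log2 fold change 1.42 with SE 0.22, adjusted p = 0.000628), a call kept under all 28 alternatives. In KPAT against KPT it did not pass (log2 fold change 0.34 with SE 0.22, adjusted p = 0.305). It passed there without KPT 3, KAT 2 and KPAT 5 together (adjusted p 0.0495, in a range of 0.0495 to 0.516). In KPAT against KAT it missed limma's threshold (log2 fold change -1.08 with SE 0.22, adjusted p = 0.0978) and passed with DESeq2 (adjusted p 0.00173, in a range of 0.00173 to 0.286). Of its exon bases 8.04% lie opposite exons of Cerkl, and without knowledge of strand in the counting those reads cannot be assigned.

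Itgae, the subunit of tissue-resident T cells and some dendritic cells (ENSMUSG00000005947, chromosome 11, 73090583 to 73147446), stood at 5.00, 2.82, 3.49, 1.61 and 1.28 in KPAT tumours, at 5.72, 1.70, 11.0, 10.1 and 13.0 in KAT and at 2.21, 1.02, 2.86, 2.07 and 2.72 in KPT tumours. KAT 2 lay inside the KPT range and the other 4 KAT tumours above it. It rose in KAT (log2 fold change 1.70 with SE 0.52, adjusted p = 0.0254) and lost the call without KAT 3, KAT 4, KAT 5 or KPT 2 (adjusted p 0.0625 to 0.0665) and without KPT 1 and KAT 1 together (0.0576), in a range of 0.000803 to 0.0665. Itgb7, its beta partner and that of Itga4 in gut-homing lymphocytes, stood at 3.84, 2.59, 3.87, 1.61 and 1.52 in KPAT tumours, at 11.4, 1.59, 12.1, 9.49 and 10.4 in KAT and at 4.61, 3.07, 2.59, 2.86 and 1.87 in KPT tumours. KAT 2 was at 1.59 while the other KAT tumours were at 9.49 to 12.1, above every KPAT and KPT tumour. It missed the threshold in KAT against KPT (log2 fold change 1.34 with SE 0.50, adjusted p = 0.0540) and in KPAT against KAT (log2 fold change -1.55 with SE 0.50, adjusted p = 0.300). Without KAT 2 it passed in both (adjusted p 0.00167 in KAT against KPT and 0.0189 in KPAT against KAT). In KAT against KPT it also passed without KPT 3, KAT 2 and KPAT 5 together (0.00335). With all tumours kept, it passed there with a pseudocount of 8, on the deposited scale, with edgeR and with DESeq2 (0.00336 to 0.04575). DESeq2 also called it lower in KPAT than in KAT with all tumours (0.0167). The ranges over all alternatives were 0.00167 to 0.121 for KAT against KPT and 0.0167 to 0.652 for KPAT against KAT.

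**Figure D4:**
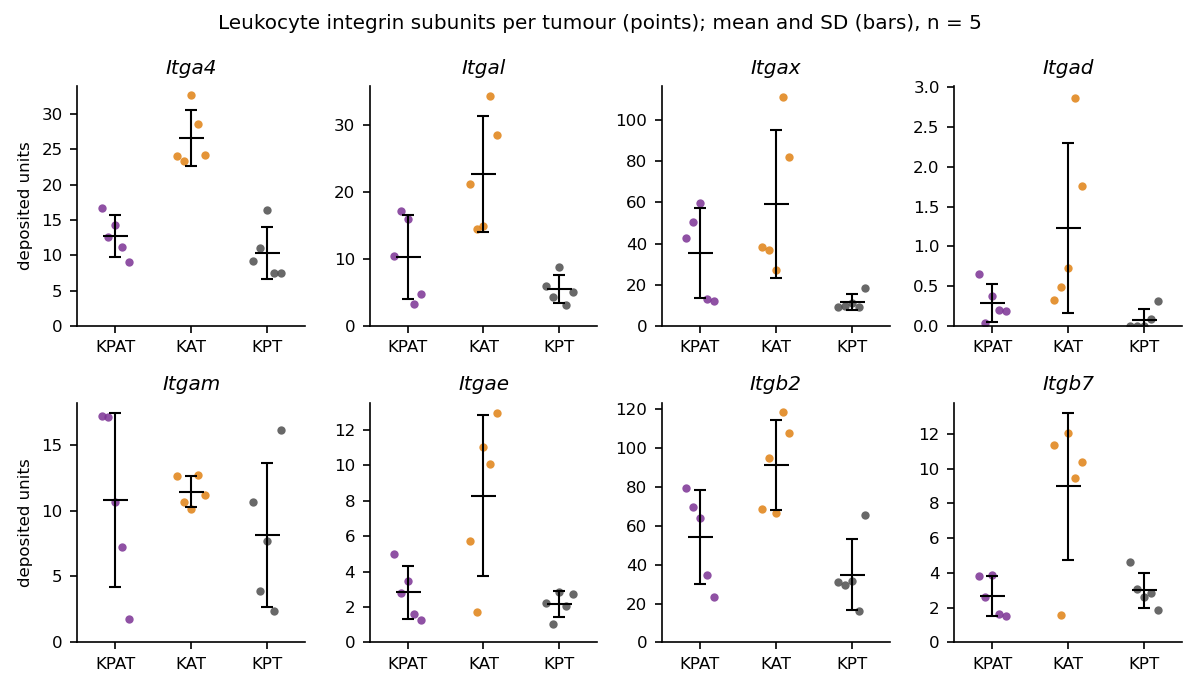
Deposited units of 8 leukocyte integrin subunits in each tumour (points), with the mean and SD of 5 tumours a group (bars), KPAT left, KAT centre and KPT right. All KAT tumours are above all KPT tumours for Itga4, Itgal, Itgax, Itgad and Itgb2, and 1 KAT tumour is low for Itgb7 (1.59) and Itgae (1.70).

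Pan-leukocyte, macrophage and dendritic cell markers moved with these subunits, while neutrophil markers were called in both directions and T cell markers in neither. The 4 pan-leukocyte markers (Ptprc, Cd53, Laptm5 and Coro1a) summed to 129 to 319 in KPAT, 367 to 489.7 in KAT and 98.3 to 166 in KPT, with 3 of 4 higher in KPAT and 4 of 4 in KAT. Macrophage markers rose for 3 of 7 genes in KPAT and 5 of 7 in KAT, and their sum was 581 to 1063 in KPAT, 848 to 1735 in KAT and 455 to 647 in KPT. Dendritic cell markers rose for 1 of 4 tested in KPAT and 3 of 4 in KAT, with median log2 fold changes of 0.55 and 1.55. Their sum was 8.12 to 14.4 in KPAT, 8.46 to 24.3 in KAT and 3.45 to 8.91 in KPT. T cell markers gave no call among 5 tested, with median log2 fold changes of -0.50 in KPAT and 1.62 in KAT, and summed to 1.63 to 5.61 in KPAT, 1.92 to 19.6 in KAT and 2.42 to 9.93 in KPT. Neutrophil markers had median log2 fold changes of -0.93 in KPAT and -0.17 in KAT, and summed to 24.1 to 121 in KPAT, 60.6 to 268 in KAT and 24.3 to 154 in KPT. Of the 6, Mmp9 rose in both comparisons, Csf3r rose in KAT and Retnlg fell in both (log2 fold change -2.68 in KPAT with limma's adjusted p = 0.0348, and -2.54 in KAT with 0.0287). B cell markers, with 1 of 4 higher in KAT, summed to 0.912 to 11.0 in KPAT, 1.04 to 75.2 in KAT and 3.62 to 18.5 in KPT. KAT 2 was the lowest KAT tumour for the T cell, B cell and dendritic cell sums, as it was for Itgb7 and Itgae. Divided by the pan-leukocyte sum, Itgb2 was 18.2% to 30.9% in KPAT, 17.3% to 29.0% in KAT and 16.5% to 39.3% in KPT. Itgax was 6.99% to 18.8% of it in KPAT, 7.13% to 22.7% in KAT and 5.53% to 11.0% in KPT. For Itga4, Itgal, Itgam, Itgax, Itgae, Itgb2 and Itgb7 these shares overlapped between the groups in all 3 comparisons.

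Itgal, Itgam, Itgax and Itgad lie on chromosome 7, and the last 3 are direct neighbours on its plus strand, with Itgam ending at 128118491, Itgax beginning at 128129547 and Itgad beginning at 128154376. The promoters of Itgam, which did not pass, and of Itgax, which rose in KAT, are shown as those of neighbouring genes of which 1 was called, and that of Itga4 because it had the smallest p in KAT. Whether Itgam and Itgax differ in their change was not tested, and their 95% intervals in KAT against KPT, -0.44 to 2.01 and 1.19 to 3.24, overlap. Each run is the 250 bases before the annotated start, from RefSeq on GRCm38.p6, 5′ to 3′ on the plus strand, with 2 motifs searched on both strands in capitals. These are GAGGAA, the core of sites of the myeloid factor PU.1 (TTCCTC on the other strand), and TGANTCA, the AP-1 site.
Itgax: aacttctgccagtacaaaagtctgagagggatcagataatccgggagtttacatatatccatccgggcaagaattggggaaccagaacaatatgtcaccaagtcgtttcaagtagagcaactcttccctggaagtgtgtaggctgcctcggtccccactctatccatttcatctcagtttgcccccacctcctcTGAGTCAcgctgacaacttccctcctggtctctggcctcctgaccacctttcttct
Itgam: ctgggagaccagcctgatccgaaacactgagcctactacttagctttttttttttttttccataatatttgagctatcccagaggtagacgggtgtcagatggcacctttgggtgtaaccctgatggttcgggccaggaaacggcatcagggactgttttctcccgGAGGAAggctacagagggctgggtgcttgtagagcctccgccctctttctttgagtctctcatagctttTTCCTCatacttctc
Itga4: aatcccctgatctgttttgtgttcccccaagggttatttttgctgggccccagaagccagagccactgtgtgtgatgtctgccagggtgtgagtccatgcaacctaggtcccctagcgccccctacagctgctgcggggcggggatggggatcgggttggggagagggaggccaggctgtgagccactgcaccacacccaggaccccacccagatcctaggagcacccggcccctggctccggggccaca
The windows are chr7:128129300-128129549 for Itgax, chr7:128062390-128062639 for Itgam and chr2:79255176-79255425 for Itga4. Itgax holds a single AP-1 match, which starts 56 bases before the gene, and no GAGGAA. Itgam holds a pair of GAGGAA matches, starting 84 and 15 bases before the gene, and no AP-1 match. Itga4 holds neither. GAGGAA occurs in 23.3% of the 32851 promoter windows of the genome table and TGANTCA in 6.75%, and counted per gene in at least 1 window of 25.9% and 7.82% of 27025 genes. Among the 23 members with a window, 13 hold GAGGAA in at least 1 window and 1 holds TGANTCA, and the other 14 members have no window here. A match is a string of letters and not a bound site.

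Laminin and integrin chains work as partners, so the tumours were asked whether partner genes vary together within genotypes. For 28 known pairs, the deviations of the 15 tumours from their genotype means were correlated on the log2 scale, with 100000 permutations within genotypes and adjustment over the 28 pairs. Both genes of a pair come from the same library and the same mix of cells, so a correlation does not separate cells from regulation. With an adjusted p of at most 0.05, 9 pairs passed by r, on which the calls below rest, 7 by rho and 6 by both. Pairs of members that are not partners were not tested, so these counts do not show that varying together is particular to partners. Among leukocyte pairs called by r were Itgam with Itgb2 (r = 0.87, rho = 0.86, permutation p = 0.000240 for r and 0.000150 for rho, adjusted p = 0.00392 for r and 0.00420 for rho) and Itgax with Itgb2 (r = 0.82, rho = 0.82, permutation p = 0.000420 for r and 0.00126 for rho, adjusted p = 0.00392 for r and 0.00882 for rho). Without the 2 tumours farthest from the median of the first gene, r was 0.74 for Itgam with Itgb2 and 0.84 for Itgax with Itgb2. Itgal with Itgb2 missed the threshold by r and passed it by rho (r = 0.67, rho = 0.74, permutation p = 0.0221 for r and 0.0121 for rho, adjusted p = 0.0562 for r and 0.0484 for rho).

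In the hemidesmosome, Itga6 and Itgb4 varied together (r = 0.84, rho = 0.86, permutation p = 0.00106 for r and 0.000990 for rho, adjusted p = 0.00742 for r and 0.00882 for rho), with r = 0.76 without KPAT 2 and KPAT 5. Among laminin pairs, Lama3 with Lamb3 passed by r and not by rho (r = 0.64, rho = 0.51, permutation p = 0.00879 for r and 0.0681 for rho, adjusted p = 0.0306 for r and 0.159 for rho), fell to 0.51 without KPAT 3 and KPT 4, and was lost without KPAT 1, KPAT 3, KAT 2 or KPT 4 (adjusted p up to 0.159). Lama2 with Lamc1 passed (r = 0.67, rho = 0.66, permutation p = 0.00982 for r and 0.0106 for rho, adjusted p = 0.0306 for r and 0.0484 for rho), with r = 0.43 without KAT 1 and KPAT 3, and was lost without any 1 of 7 tumours, KPAT 2, KPAT 3, KAT 1, KAT 2, KAT 3, KAT 5 or KPT 2 (adjusted p up to 0.148).

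Of 9 pairs of Itgb1 that were tested 3 passed by r, and by rho only that with Itga2. They were Itgb1 with Itga2 (r = 0.74, rho = 0.80, permutation p = 0.000380 for r and 0.00106 for rho, adjusted p = 0.00392 for r and 0.00882 for rho), with Itga3 (r = 0.77, rho = 0.52, permutation p = 0.00503 for r and 0.0609 for rho, adjusted p = 0.0234 for r and 0.155 for rho) and with Itga5 (r = 0.79, rho = 0.60, permutation p = 0.00205 for r and 0.0336 for rho, adjusted p = 0.0115 for r and 0.105 for rho). Without the 2 farthest tumours r was 0.83 for Itga2, 0.65 for Itga3 and 0.52 for Itga5. Itga3 was not called without KPAT 3, KAT 2 or KAT 5 (adjusted p up to 0.0905) and Itga5 without KPAT 3 or KAT 2 (up to 0.0894). Itga4 with Itgb1 (r = -0.01, rho = 0.16, permutation p = 0.971 for r and 0.599 for rho, adjusted p = 0.993 for r and 0.677 for rho) and Itga1 with Itgb1 (r = 0.00, rho = 0.17, permutation p = 0.993 for r and 0.582 for rho, adjusted p = 0.993 for r and 0.677 for rho) did not pass, nor did Lamb1 with Lamc1 (r = -0.07, rho = -0.07, permutation p = 0.808 for r and 0.789 for rho, adjusted p = 0.903 for r and 0.808 for rho). The pairs of Itgav with Itgb3, Itgb5, Itgb6 and Itgb8 had r between -0.36 and 0.31 and did not pass either.

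**Figure D5:**
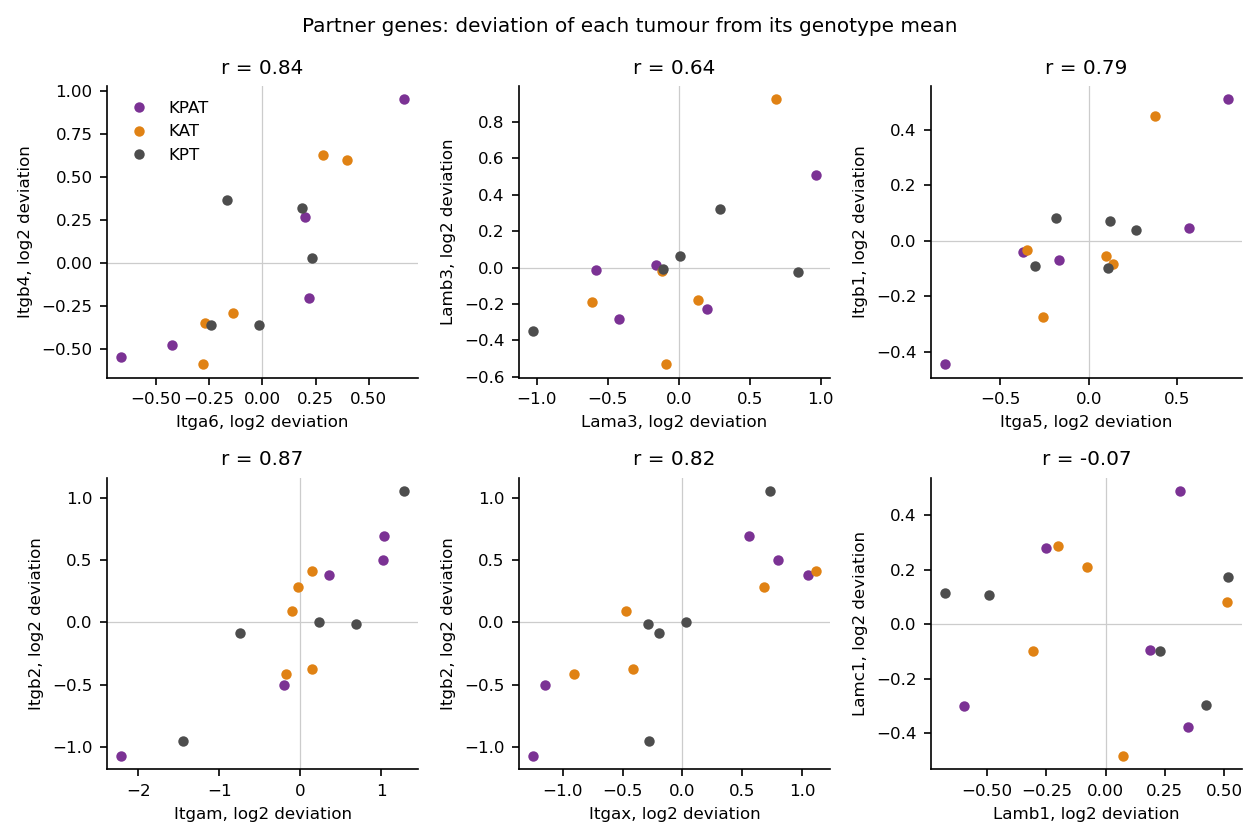
Deviation of each of the 15 tumours from its genotype mean on the log2(normalized count + 1) scale for 6 partner pairs, with r over the 15 tumours above each panel. Itga6 with Itgb4, Itga5 with Itgb1 and the pairs of Itgb2 rise together, KAT 2 and KPAT 3 lie at the upper right for Lama3 with Lamb3 (r = 0.64), and Lamb1 with Lamc1 shows no slope (r = -0.07).

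Genes that work beside the laminins and integrins were counted in the same fit, where 9.13% of all tested genes rose in KPAT and 15.6% in KAT. Of 15 other basement membrane genes 6 rose in KPAT and 7 in KAT, and none fell, with median log2 fold changes of 0.48 and 0.59. Col15a1, a collagen at the edge of the basement membrane, had a level of 222 ± 88.2 in KPAT, 296 ± 110.3 in KAT and 68.2 ± 33.6 in KPT (SD, n = 5 each), and rose in KPAT (log2 fold change 1.77 with SE 0.36, adjusted p = 0.00649) and in KAT (log2 fold change 2.19 with SE 0.36, adjusted p = 0.000772). Sparc, a matrix protein that binds type IV collagen, had 1677 ± 558 in KPAT, 1664 ± 287 in KAT and 775 ± 285 in KPT (SD, n = 5 each) and rose in KPAT (log2 fold change 1.15 with SE 0.27, adjusted p = 0.0120) and in KAT (log2 fold change 1.18 with SE 0.27, adjusted p = 0.00549). Of 9 hemidesmosome and other laminin receptor genes, Dag1 and Col7a1 rose in KPAT, while Dag1 rose and Sdc4 fell in KAT. Dag1, which encodes dystroglycan, a laminin receptor that is not an integrin, had 301 ± 39.6 in KPAT, 325 ± 45.5 in KAT and 203 ± 27.3 in KPT (SD, n = 5 each), and rose in KPAT (log2 fold change 0.56 with SE 0.13, adjusted p = 0.0116) and in KAT (log2 fold change 0.67 with SE 0.13, adjusted p = 0.00223). Its KPAT call was lost without KPT 3, KAT 2 and KPAT 5 together (adjusted p 0.0643).

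Of 27 genes of the proteins that couple integrins to actin, 5 rose in KPAT and 9 in KAT, and none fell. Tln2, a talin, which activates integrins from inside the cell, had 37.3 ± 14.3 in KPAT, 42.9 ± 12.2 in KAT and 13.8 ± 1.05 in KPT (SD, n = 5 each), and rose in KPAT (log2 fold change 1.36 with SE 0.23, adjusted p = 0.00321) and in KAT (log2 fold change 1.58 with SE 0.23, adjusted p = 0.000423). Fermt2, a kindlin of adherent cells, had 55.3 ± 13.9 in KPAT, 62.2 ± 3.40 in KAT and 31.2 ± 11.1 in KPT (SD, n = 5 each) and rose in KPAT (log2 fold change 0.87 with SE 0.23, adjusted p = 0.0186) and in KAT (log2 fold change 1.07 with SE 0.23, adjusted p = 0.00347). Its KPAT call was lost without KPAT 2, without KPT 3, KAT 2 and KPAT 5 together, and with only the compared groups fitted (adjusted p 0.0517 to 0.0621). Fermt3, the kindlin of blood cells, had 27.6 ± 9.61 in KPAT, 46.1 ± 6.14 in KAT and 16.9 ± 3.01 in KPT (SD, n = 5 each) and rose in KAT (log2 fold change 1.45 with SE 0.23, adjusted p = 0.000688). Of 25 tested ligand genes 12 rose and 1 fell in KPAT, and 12 rose and 2 fell in KAT, with median log2 fold changes of 0.87 and 1.15. The ligand list shares Col1a1, Col1a2 and Col3a1 with the fibroblast markers and Cdh1 with the epithelial markers, so these genes are counted in both. Postn, the matrix protein periostin, had 368 ± 57.4 in KPAT, 301 ± 64.1 in KAT and 131 ± 43.2 in KPT (SD, n = 5 each) and rose in KPAT (log2 fold change 1.54 with SE 0.21, adjusted p = 0.00154) and in KAT (log2 fold change 1.24 with SE 0.21, adjusted p = 0.00101). Tgfb3, whose latent form is bound by Itgav integrins, had 89.4 ± 22.2 in KPAT, 122 ± 35.8 in KAT and 43.6 ± 12.2 in KPT (SD, n = 5 each) and rose in KPAT (log2 fold change 1.06 with SE 0.25, adjusted p = 0.0124) and in KAT (log2 fold change 1.49 with SE 0.25, adjusted p = 0.000979). Vcam1, the ligand of the Itga4 integrins, had 126 ± 21.5 in KPAT, 131 ± 35.2 in KAT and 58.0 ± 12.8 in KPT (SD, n = 5 each) and rose in KPAT (log2 fold change 1.13 with SE 0.20, adjusted p = 0.00344) and in KAT (log2 fold change 1.15 with SE 0.20, adjusted p = 0.00105). Icam1, the ligand of the Itgb2 integrins and the only ligand gene that fell in KPAT, had 73.4 ± 15.8 in KPAT, 72.4 ± 11.3 in KAT and 119 ± 33.9 in KPT (SD, n = 5 each), and fell in KPAT (log2 fold change -0.68 with SE 0.20, adjusted p = 0.0362) as well as in KAT (log2 fold change -0.68 with SE 0.20, adjusted p = 0.0224). The KPAT call was lost with the replicate number as a block, with only the compared groups fitted, without KPT 1 and KAT 1 together, and without any 1 of KPAT 1, KPAT 3, KPAT 4, KPAT 5, KPT 2, KPT 4 or KPT 5 (adjusted p up to 0.0805), and the KAT call without KAT 2, KPT 4 or KPT 5 (up to 0.0529). The other ligand that fell in KAT was Cdh1, the E-cadherin gene. KPAT against KAT called no gene of these 4 lists.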

How the data were processed

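Per the labels' protocols, RNA came from RNeasy midi columns, libraries from the TruSeq RNA kit and reads from a HiSeq4000. The submitters' processing notes name HISAT2 2.0.4 and the GRCm38 (mm10) build. How reads were counted and scaled, with which annotation and strand setting, is not given in the sources used here. Judged from its values, the deposited signal is whole reads that the authors scaled per library, since 100% of values came within 0.01 of a whole number once the library's factor was undone. Gene IDs were matched to the GENCODE annotation on GRCm38 (20574 of 20636).

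The planned design assumed values on the scale of reads, so every value was first multiplied by 19.478, the reads behind 1 deposited unit as a geometric mean over libraries. Genes with a mean of at least 10 normalized counts, 16648 in all, were fitted on log2(normalized count + 1) over all 15 tumours by limma 3.58.1 (R 4.3.3) with a mean for each group and a trended eBayes, and two-sided p-values were adjusted by Benjamini-Hochberg at 0.05. Alternatives were a pseudocount of 0.5 or 8, a minimum mean of 50 or none, the deposited scale, median-of-ratios scaling, the compared groups alone, robust eBayes, the replicate number as a block, edgeR 4.0.16 and DESeq2 1.42.0 on recovered reads, and leaving out tumours. Shares of marker sums were added after seeing the data. The model and the pair test were tested on simulated data. Python 3.11.15 with numpy 2.4.6, pandas 2.3.3, scipy 1.17.1 and matplotlib 3.10.9 handled tables, pairs and plots.

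The genes, marker lists, pairs and tests were chosen with earlier results of these data known, so no count here is independent evidence of a pattern shown by them. Values are named for each member called in at least 1 comparison and for Lama3, Lamb3, Itga6, Itgb4, Itgav, Itgb1 and Itgb6, other members are given by range or count, and of each list at most 3 genes are named for their smallest p in a comparison, besides any named because a count was 5 or fewer. Nothing in the labels says that tumours of a group came from separate mice, so p-values measure the spread between these samples. The labels give no batch. Counting error weighs most on the lowest members, and reads without molecular identifiers are not independent molecules. Whether equal tumour numbers pair tumours across groups was checked by correlating their deviations from the group means, and they did not meet that condition. The values of 1 member are not reported here, although counts over all members and pairs include it.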

Additional observations from a re-analysis of the deposited data

Results flagged for a closer look

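Within-group gaps were examined for each of 36 genes in each of the 3 groups, 108 checks in all, by setting the gap of the most extreme tumour against the group's range. Chance alone passes about 1 in 20 such checks, and 4 passed here. Itgb7 was 1.59 in KAT 2, against 9.49 to 12.1 in the other KAT tumours. Lama2 was 13.6 in KPAT 3, against 41.7 to 65.4 in the other KPAT tumours. Itga2b was 9.10 in KPAT 3, against 3.19 to 3.89 in the other KPAT tumours. Itga2 was 78.3 in KPT 1, against 171 to 204 in the other KPT tumours. KAT 2 also held the lowest summed endothelial level of its group (181) and KPAT 3 the lowest fibroblast sum of its group (5126). The part of these features in the gaps was not tested.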

How the results depend on the processing

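Of 23 called fold changes, 11 kept their call under every alternative and 12 lost it under at least 1, always with the same sign. Of 29 uncalled ones chosen to be followed through the alternatives, not all of them given above, 7 passed under at least 1. Signs turned for Itgb1 in KPAT against KPT without KPAT 1 (0.04153, range over single tumours left out -0.20 to 0.04) and for Itga7 in KAT against KPT without KAT 2 (0.01664, range -0.3244 to 0.01664). The 7 calls in KPAT against KPT became 4 without KPT 1 and KAT 1, 5 to 8 with 1 tumour left out, 8 with edgeR and 9 with DESeq2. The 16 calls in KAT against KPT became 11 to 17 over all alternatives. In KPAT against KAT, DESeq2 gave 2 calls and leaving out 1 tumour 0 to 1. Over all genes, KPAT against KPT gave 1811 calls with only its own groups fitted, 1735 without KPT 3, KAT 2 and KPAT 5, 1686 to 2896 with 1 tumour left out, and 3861 with DESeq2, against 2752. KPAT against KAT gave 15 calls with only its own groups fitted, 284 with DESeq2, 17 without KPT 3, KAT 2 and KPAT 5, and 7 to 36 with 1 tumour left out, against 8. Its 6 higher and 2 lower calls were 7 and 5 on the deposited scale. The 9 pairs became 5 without KPT 3, KAT 2 and KPAT 5, and 4 to 11 with 1 tumour left out, with 4 without KAT 2 or without KPAT 3. The cause of these changes was not tested. Same-numbered tumours deviated together with correlations of -0.21 to 0.25, so the numbers share only a name; with the replicate block 6, 14 and 0 members were called, and 2248, 4313 and 7 genes, in KPAT against KPT, KAT against KPT and KPAT against KAT.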

Other observations

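The level of a beta subunit relative to its alpha partners was computed per kb of exon, a description chosen after the values were seen. Itgb1 divided by the sum of its 12 alpha partners was 0.701 to 0.911 in KPAT, 0.683 to 1.08 in KAT and 1.10 to 1.39 in KPT. Both groups lay below KPT without overlap, KAT narrowly. Of single genes, 9.97% did not overlap in KPAT against KPT and 17.6% in KAT against KPT, and no such share was computed for ratios. The alpha sum counts Itga6 and Itgav whole, although both also pair with other beta subunits. In the same tumours Itgb1 itself was 186 to 360 per kb in KPAT, 188 to 311 in KAT and 248 to 281 in KPT, and the alpha sum was 214 to 507 in KPAT, 174 to 401 in KAT and 198 to 247 in KPT. Itgb2 divided by its 4 alpha partners was 1.22 to 2.42 in KPAT, 1.23 to 2.55 in KAT and 1.85 to 2.81 in KPT, with overlap between all groups. Itgb4 divided by Itga6 was 0.942 to 1.55 in KPAT, 1.38 to 2.17 in KAT and 0.999 to 1.84 in KPT, again with overlap. Itgav divided by the sum of its 5 beta partners was 0.0518 to 0.0671 in KPAT, 0.0573 to 0.0753 in KAT and 0.0372 to 0.0614 in KPT, also with overlap.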
